A study of Arabidopsis thaliana with 6 samples.

Results

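Of 22746 Arabidopsis probe sets measured in anthers, 52 (0.229%) were higher on each of 3 *myb80* mutant arrays than on every wild-type array by a factor of at least 2, and 43 of these are described here. They were selected on the deposited intensities themselves: after values under 16 were raised to 16, the lowest mutant array had to reach 100 and had to stand at least 2 times above the highest wild-type array. The other 9 probe sets that met this rule were left out by name, among them those of the thionin THI2.1, the peroxidase AT5G66390, 3 sugar transporters and 3 lipid transfer proteins. Since the difference between the genotypes chose the 43, their intensities and folds are given as a description, and no p-value is attached to any of them. Of the 43 probe sets, 18 carry 1 gene in the probe table used here, 2 carry several genes and 23 are unnamed. The share with 1 gene was 41.9%, against 59.4% over all probe sets.

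Each array held RNA of whole dissected anthers of *Arabidopsis thaliana*. The mutant arrays, named 1, 4 and 5-2 in the labels, came from plants with a mutation in MYB80, whose allele the labels do not give, and the wild-type arrays are named 2, 5 and 6. About 1000 anthers between stages 5 and 8 went into each replicate, which the labels call biological, though they leave the name 5-2 unexplained. The labels describe no other treatment and do not name the accession or the age of the plants. Nothing says that the replicates came from separate plants, so the spread between arrays may in part be technical.

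MYB80 is a MYB transcription factor of the tapetum, the innermost layer of the anther wall. The tapetum feeds the microspores, supplies the enzymes that free them from the tetrad and the material of the pollen wall, and then dies in a timed way. In Arabidopsis plants that lack MYB80 the tapetum degenerates early and the pollen aborts, so the plants are male sterile. In whole anthers a higher intensity can come from more RNA per cell or from a larger share of the cells that hold the transcript, and these cannot be told apart here.

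The median intensity of an array ran from 64.8 to 81.1 in the mutant and from 69.5 to 73.5 in wild type, and between 18.1% and 23.6% of the probe sets lay at or under 16 on any array. No named probe set carries MYB80, so the labels were not checked on the mutated gene. A marker or family gene is called measured here if a probe set carries it as its only gene in the probe table. The others may lie on unnamed or shared probe sets. Of 29 tapetum and anther markers 10 were measured, none at the floor on all arrays. Their summed intensity was 21134 to 30658 in the mutant and 18244 to 23205 in wild type. AT5G07230 (A9), SWEET8 and ATA27 make up most of that sum, which hides unlike members: 6 were higher and 4 lower in the mutant, from UND with a log2 difference of -3.12 to AT2G31210 with 1.32. Of 11 microspore and pollen markers 5 were measured, and their summed intensity was 205 to 2003 in the mutant, below the 3841 to 5687 in wild type. The 2 measured markers of photosynthetic tissue, of 7 listed, summed to 885 to 1224 in the mutant and 460.03 to 819.8 in wild type. The summed markers of meiosis (4 of 10 measured) and of sepals, petals and carpels (2 of 7 measured) overlapped between the genotypes. The part of these other cell types in the values below was not tested.

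**Figure D1:**
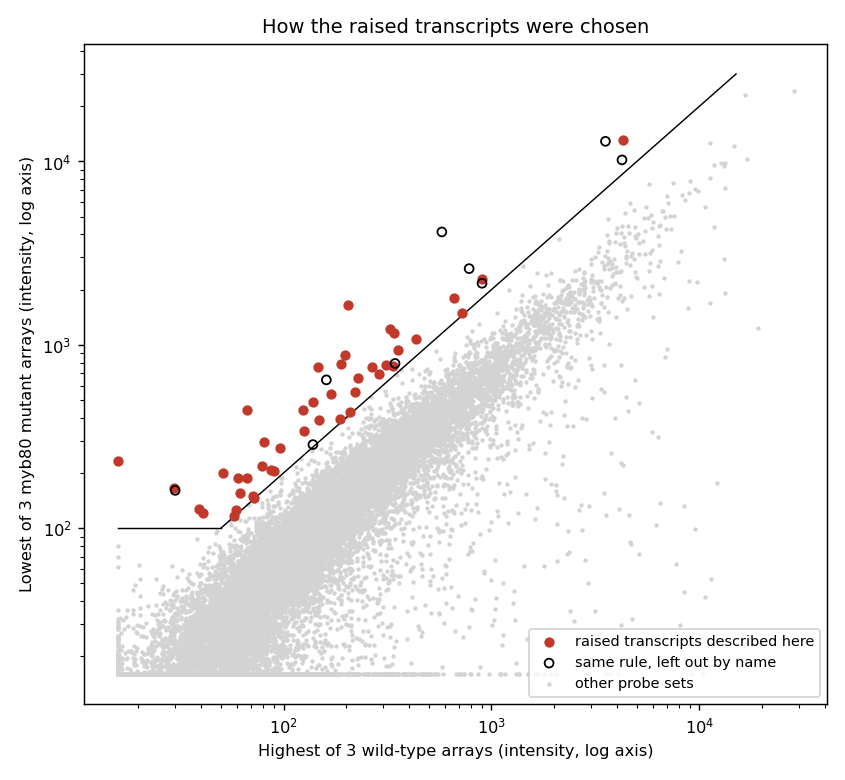
Each point is 1 probe set, with the lowest of the 3 *myb80* mutant arrays on the vertical axis and the highest of the 3 wild-type arrays on the horizontal axis, both as intensity on log axes after values under 16 were raised to 16. The black line is the rule (100 or more, and 2 times the highest wild-type array). The 43 filled points above it are described here and the 9 open circles were left out by name.

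The mirror image of the rule, with every wild-type array at least 2 times above the highest mutant array, was met by 120 probe sets (0.528%). Among the 43, the geometric mean intensity of the mutant arrays stood between 2.49-fold and at least 16.2-fold above that of wild type, with a median of 4.74-fold (log2 difference 2.24, against 0.03 over all probe sets), and 33 of the 43 were at least 4-fold higher. The gap between the groups, taken as the lowest mutant array over the highest wild-type array, was 2.82-fold in the median, at least 3-fold in 17 and at least 4-fold in 7. On 1 of the 43 probe sets all wild-type arrays lay at the floor, on 4 some did, and on 38 none did. Most of these transcripts thus lay above the floor in wild-type anthers too.

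Leaving out an array can only widen the rule, and single arrays differed in how much. Without mutant array 4 the same rule would take 95 probe sets, and without wild-type array 6 it would take 66. By the fit across all probe sets (limma, dimmest 1 in 3 left out), 54 of 15164 were called higher in the mutant at adjusted p under 0.05, or 0.356%, and 87 (0.574%) were called lower. Of the 43, 37 were among the higher calls, a count that the choice of the members largely fixes and from which nothing is read. It was 11, 38 and 6 without mutant arrays 1, 4 and 5-2, 3, 5 and 10 without wild-type arrays 2, 5 and 6, and 1 when all 22746 probe sets were kept. With the arrays brought to a common median, the calls over all probe sets were 68 higher and 243 lower.

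At the edge of the rule, AT2G24800, AT2G31945 and AT2G28790 were the members with the smallest margin, their lowest mutant array being 2.01, 2.02 and 2.08 times the highest wild-type array. Just outside lay AT1G56030, with 134, 161 and 137 in mutant arrays 1, 4 and 5-2 and 67.3, 33.0 and 43.9 in wild-type arrays 2, 5 and 6, together with 2 unnamed probe sets. The genes on the other side of the line therefore hardly differ from those just inside it.

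Several named members belong to families of secreted proteins or of plant defence, whose share among all named probe sets was not counted. AT3G48450, of the NOI family related to the immune regulator RIN4, had intensities of 1744, 1653 and 1645 in mutant arrays 1, 4 and 5-2, against 112, 139 and 204 in wild-type arrays 2, 5 and 6. Its mutant arrays lay within 1.06-fold of each other and all stood far above wild type, with a gap of 8.04-fold and an 11.4-fold difference of the means (log2 difference 3.51 ± 0.28, SE of the fit across all probe sets, n = 3 per group). No other member with a gene name had so wide a gap.

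AT1G04645 belongs to the S1 family of small secreted proteins, whose founding member is the self-incompatibility protein of poppy. It stood at 1987, 439 and 1882 in mutant arrays 1, 4 and 5-2 and at 93.1, 82.0 and 124 in wild-type arrays 2, 5 and 6, a 12.01-fold difference (log2 3.59 ± 0.55). Without mutant array 4 the log2 difference was 4.30, or 19.7-fold. Mutant array 4 was the low one, 4.53-fold under the highest mutant array, and still exceeded wild-type array 6, the highest, by 3.54-fold.

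AT3G52130, a protein of the lipid transfer and seed storage superfamily, reached 1195, 759 and 857 in mutant arrays 1, 4 and 5-2, against 172, 267 and 215 in wild-type arrays 2, 5 and 6 (4.29-fold, log2 2.1 ± 0.28). Mutant array 4 was again the lowest of the mutant arrays. Small secreted lipid transfer proteins are a known class of tapetal products. AT2G28790, of the thaumatin family of pathogenesis-related proteins, showed 1924, 1655 and 1495 in mutant arrays 1, 4 and 5-2 and 499, 719 and 633 in wild-type arrays 2, 5 and 6. Its difference of 2.76-fold was among the smaller ones here, and no array of either genotype stood apart.

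**Figure D2:**
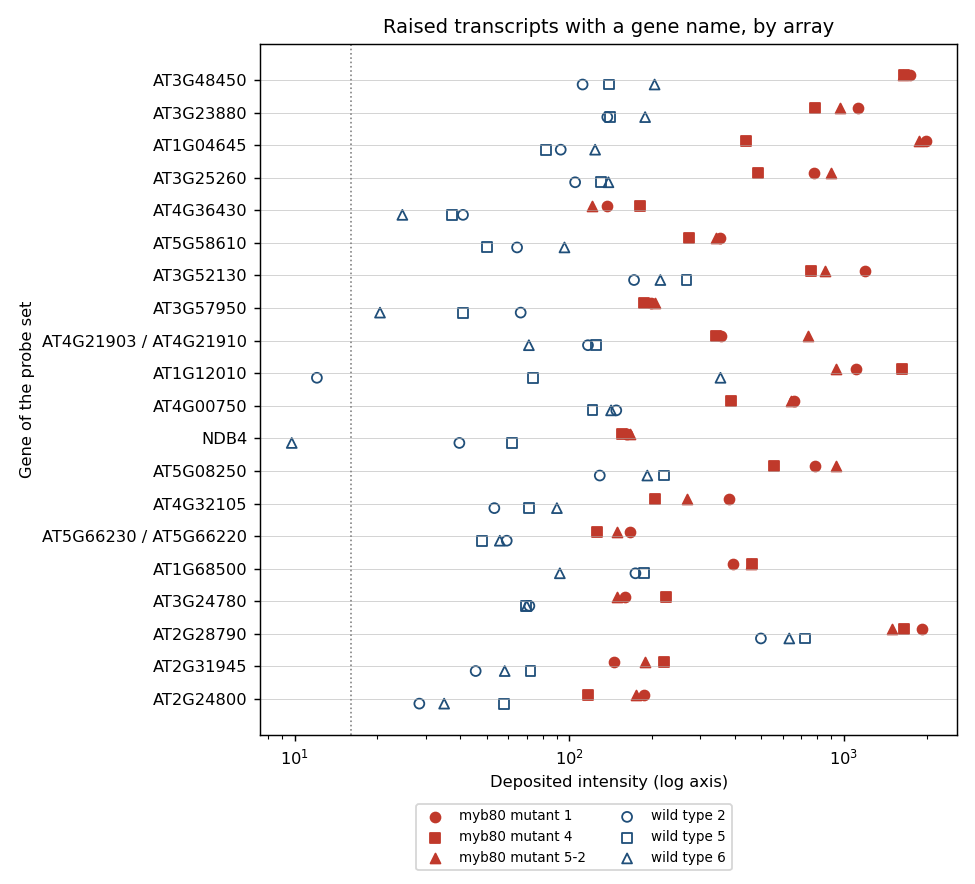
Deposited intensity (log axis) of the 20 raised probe sets that carry a gene name, 18 with 1 gene and 2 with several, on each *myb80* mutant array (filled) and each wild-type array (open); the dotted line is the floor of 16. Mutant and wild-type arrays are separate in every row by the rule. AT1G12010 and NDB4 show the wide spread of wild-type values, and AT1G04645 the low value of mutant array 4.

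Among the enzymes, AT1G12010 encodes an ACC oxidase, which carries out the last step of ethylene synthesis. Its intensity was 1103, 1630.4 and 935 in mutant arrays 1, 4 and 5-2, against 12.04, 73.9 and 355 in wild-type arrays 2, 5 and 6. The mutant arrays spanned 1.74-fold, whereas the wild-type arrays were spread over the whole range from below the floor to 355. The 15.9-fold difference of the means (log2 3.99 ± 0.94) is therefore loosely determined. Without wild-type array 2 the log2 difference was 2.88, and without wild-type array 6 it was 5.11. No ACC oxidase gene was recognised by name in the probe table, and AT1G12010 was entered by its locus code. Its relatives were therefore not analysed here.

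AT5G08250 encodes a cytochrome P450 of the CYP86 group, which in Arabidopsis includes fatty acid hydroxylases that make precursors of cutin and suberin. It had 785, 555 and 939.5 in mutant arrays 1, 4 and 5-2 and 129, 221 and 192 in wild-type arrays 2, 5 and 6 (4.21-fold, log2 2.07 ± 0.31). The genotypes are apart by the rule, and the spread within each was similar, 1.69-fold in the mutant and 1.71-fold in wild type. AT4G00750, a methyltransferase related to the pectin-linked QUA2, stood at 656, 389 and 643 in mutant arrays 1, 4 and 5-2, against 148, 122 and 142 in wild-type arrays 2, 5 and 6. Its difference was 4.002-fold, with mutant array 4 the low one. A probe for AT4G00750 may also see AT4G00752, which overlaps it in the RefSeq annotation.

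Class III peroxidases, secreted haem enzymes that cross-link or loosen cell walls, supplied 2 members besides AT5G66390, which the rule met but left out by name. AT4G36430 had 138, 182 and 121 in mutant arrays 1, 4 and 5-2, against 41.0, 37.5 and 24.7 in wild-type arrays 2, 5 and 6 (4.30-fold, log2 2.1 ± 0.29). AT2G24800 had 187, 117 and 175 in mutant arrays 1, 4 and 5-2, against 28.4, 57.9 and 35.0 in wild-type arrays 2, 5 and 6 (4.05-fold, log2 2.02 ± 0.34). Both stayed under 200 on every array, and they differed in which mutant array was high: array 4 was the highest for AT4G36430 and the lowest for AT2G24800. When arrays were brought to a common median, AT2G24800 no longer met the rule. Of the 6 other peroxidase genes found by name, 3 had all arrays of one genotype at the floor, so their differences are not measured, and the other 3, AT2G41480, PRXR1 and PRX52, had log2 differences of -0.36, 0.01 and 0.06.

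NDB4 is one of the type II NAD(P)H dehydrogenases of plant mitochondria, which pass electrons to ubiquinone without pumping protons. Its intensity was 163, 155 and 166 in mutant arrays 1, 4 and 5-2 and 39.8, 61.9 and 9.75 in wild-type arrays 2, 5 and 6. The mutant arrays were within 1.07-fold of each other, while the wild-type arrays, 1 of them under the floor, were not (4.74-fold, log2 2.24 ± 0.45). Without wild-type array 6 the log2 difference of NDB4 was 1.70, and without wild-type array 5 it was 2.68. With a floor of 50 it was 1.59, and with no floor 2.48. The other 4 measured genes of this group gave other values: NDB2, NDB1 and NDC1 had log2 differences of 0.17, -0.09 and -0.24, and NDB3 had one of -1.65. NDB3 stood at 54.5, 270.5 and 97.7 in mutant arrays 1, 4 and 5-2, against 372, 465 and 256 in wild-type arrays 2, 5 and 6, so on mutant array 4 it lay within the wild-type range.

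Transport is represented by AT3G25260, also called NPF4.1, of the NRT1/PTR family, whose members carry nitrate, peptides, hormones or glucosinolates. It showed 779.9, 488 and 895 in mutant arrays 1, 4 and 5-2, against 105, 131 and 139 in wild-type arrays 2, 5 and 6 (5.63-fold, log2 2.49 ± 0.29), with a gap of 3.51-fold between the groups. Of the 10 other members of the family found by name, 3 were higher and 7 lower in the mutant, with log2 differences from -1.63 to 0.50 and a median of -0.32. The far end was the glucosinolate transporter GTR2, at 25.3, 101 and 86.7 in mutant arrays 1, 4 and 5-2 and 178, 224 and 165 in wild-type arrays 2, 5 and 6. A probe set shared by AT4G21903 and AT4G21910, both MATE-type efflux carriers, stood at 356, 341 and 741 in mutant arrays 1, 4 and 5-2, against 117, 126 and 71.3 in wild-type arrays 2, 5 and 6. Which of the pair of genes gave that signal cannot be told.

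**Figure D3:**
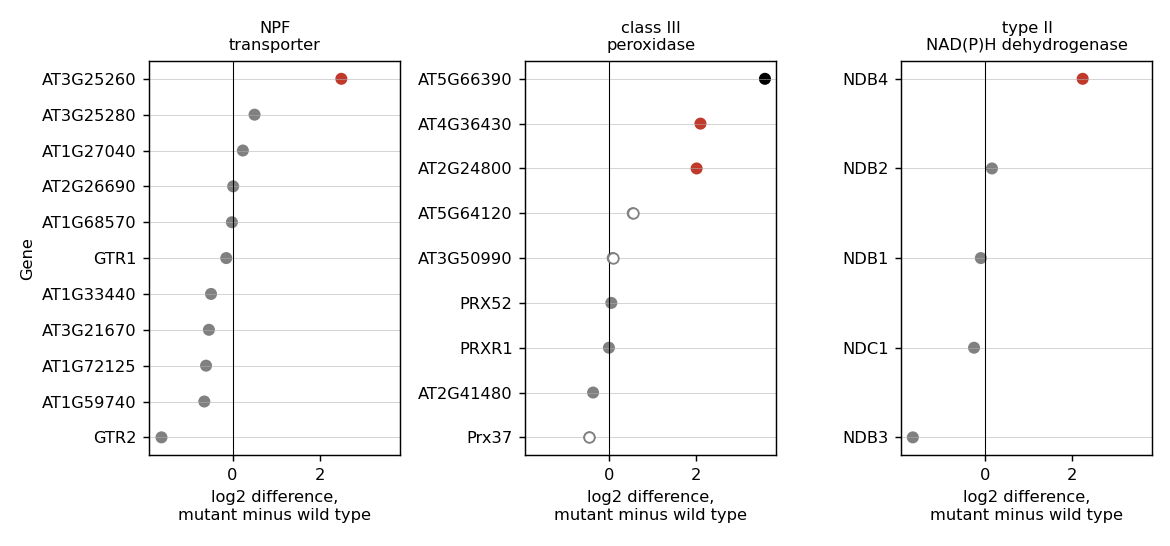
Log2 difference, *myb80* mutant minus wild type, of the named members (red) and of the relatives found by gene name in the NRT1/PTR (NPF), class III peroxidase and type II NAD(P)H dehydrogenase families. Grey points do not meet the rule, open grey points are 3 peroxidases with all arrays of one genotype at the floor of 16, and the black point, AT5G66390, meets it but was left out by name. The members stand above 2 on this scale, while the 17 filled grey points lie between -1.65 and 0.50.

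Families were drawn up by gene name after the members were known. The peroxidase members AT4G36430 and AT2G24800, which no family name matched, were added by locus code. Relatives without a family name were not added, so members and relatives did not enter on equal terms. These relatives therefore give a setting for the members and no test of them. Within the 3 families with several measured genes, 20 genes did not meet the rule, and the 17 of them with no genotype wholly at the floor had log2 differences from -1.65 to 0.50.

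A pair of members is tied to regulation. AT3G23880, an F-box protein of the kind that selects targets for ubiquitination, had 1126, 788 and 967 in mutant arrays 1, 4 and 5-2, against 138, 141 and 189 in wild-type arrays 2, 5 and 6 (6.17-fold, log2 2.62 ± 0.26). Its gap of 4.17-fold was the second widest among named members. AT5G58610, annotated as a PHD finger protein, a class that reads histone marks, had 354, 273 and 342 in mutant arrays 1, 4 and 5-2 and 64.5, 50.2 and 96.0 in wild-type arrays 2, 5 and 6 (4.73-fold, log2 2.24 ± 0.30). In both, the mutant arrays agreed within 1.43-fold.

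Members whose function is not described here were AT3G57950, AT4G32105, AT1G68500, AT3G24780 and AT2G31945. AT3G57950 was even in the mutant, with 199, 188 and 206 in arrays 1, 4 and 5-2, and uneven in wild type, with 66.5, 40.9 and 20.4 in arrays 2, 5 and 6 (5.17-fold). AT3G24780 was even in wild type, with 71.5, 69.8 and 69.95 in arrays 2, 5 and 6. It was less even in the mutant, with 160.1, 226 and 149 in arrays 1, 4 and 5-2 (2.49-fold, the smallest difference of the 43). AT4G32105 was 3.93-fold, AT2G31945 3.17-fold and AT1G68500 3.03-fold higher. A probe set shared by AT5G66230 and the chalcone isomerase family gene AT5G66220 was 2.70-fold higher, and like AT2G31945 it no longer met the rule at a common median.

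The 23 probe sets without a gene name had folds from 3.54 to at least 16.2 and a median of 5.73, against 2.49 to 15.9 and a median of 4.29 for the 18 with 1 gene. The first of them (248370_at) had 252, 234 and 295 in mutant arrays 1, 4 and 5-2 and 7.43, 11.1 and 7.85 in wild-type arrays 2, 5 and 6. All its wild-type arrays lay under the floor, so it was at least 16.2-fold higher, and its gap of 14.6-fold was the widest of the 43. The next by this gap (248932_at) had 805, 442 and 879 in mutant arrays 1, 4 and 5-2, against 66.7, 58.9 and 39.9 in wild-type arrays 2, 5 and 6 (12.6-fold). The other 21 unnamed probe sets had mutant geometric means up to 15338 and are counted in every summary above.

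The order of the mutant arrays, which the rule did not fix, was uneven. Mutant array 4 was the lowest of the 3 on 31 of the 43 (72.1%), while it was the lowest on 39.7% of the 7926 probe sets that did not meet the rule and had every mutant array at 100 or more. The 9 probe sets that met the rule and were left out by name had the same low array, in 8 of 9, so this order is no trait of the 43 alone. Mutant array 5-2 was the highest on 25 of the 43 (58.1%), against 39.2% of the others. Measured from the mean of the mutant arrays, the 43 had a median of 0.07, -0.39 and 0.22 on the log2 scale in arrays 1, 4 and 5-2, and those that did not meet the rule had 0.01, -0.04 and 0.03. Relative to wild type, the median fold of the 43 was 5.22 on array 1, 3.84 on array 4 and 6.20 on array 5-2.

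How far arrays 4 and 5-2 stand out depends on the scaling. With a common median array 4 was the lowest on 34 of the 43 (79.1%) and on 57.4% of the others, and after quantile normalization on 31 of the 43 and on 37.8% of the others. Array 5-2 was the highest on 34 of the 43 and on 64.7% of the others with a common median, and on 21 of the 43 (48.8%) and 34.9% of the others after quantile normalization. On the deposited scale, among the unnamed probe sets, array 4 was the lowest in 18 of 23 and array 5-2 the highest in 20 of 23. Among the 18 named members array 4 was the lowest in 11 and the highest in 5, namely AT1G12010, AT4G36430, AT1G68500, AT3G24780 and AT2G31945; with a common median these counts were 13 and 3. Among these 18, array 5-2 was the highest in 4 and array 1 in 9 on the deposited scale. With a common median, array 5-2 was the highest in 12 and array 1 in 3. The difference between named and unnamed probe sets was not tested.

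**Figure D4:**
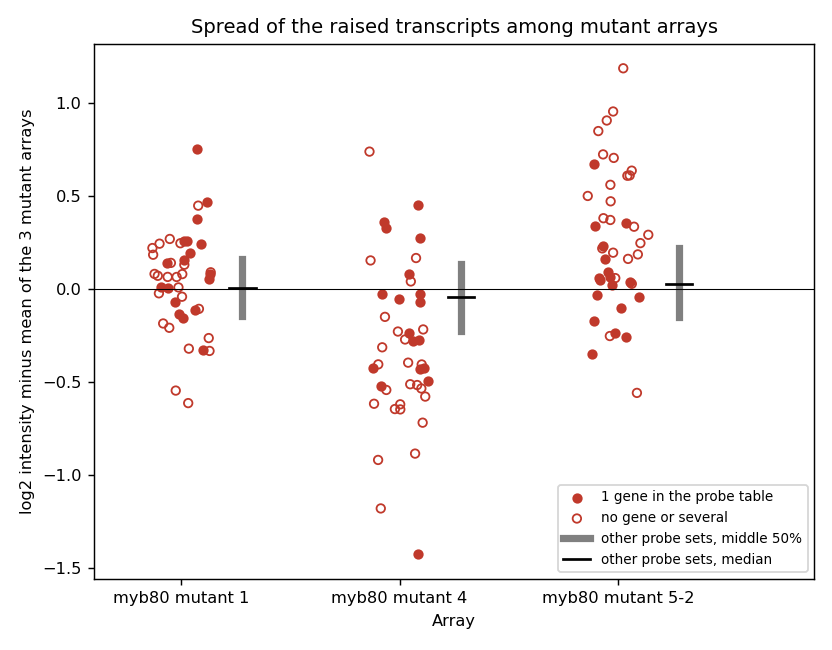
Log2 intensity of each of the 43 probe sets on *myb80* mutant arrays 1, 4 and 5-2, as the distance from its own mean over these 3 arrays; filled points carry 1 gene, open points none or several. Grey bars and black lines give the middle 50% and the median of 7926 probe sets that do not meet the rule and are at 100 or more on every mutant array. On array 4 most of the 43 lie under 0 (median -0.39), and on array 5-2 most lie above it (median 0.22).

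Other measured features of the anthers differed on mutant array 4 as well. The summed intensity of the 5 microspore and pollen markers was 205, 2003 and 326 in mutant arrays 1, 4 and 5-2, against 5687, 4094 and 3841 in wild-type arrays 2, 5 and 6, so array 4 was the mutant array nearest to wild type. AT5G45880, a homologue of tomato LAT52, gave most of this sum on every array but mutant array 1; the other 4 markers summed to 173, 414 and 116 in mutant arrays 1, 4 and 5-2 and to 923, 881 and 551 in wild-type arrays 2, 5 and 6. Array 4 was the highest mutant array for each of the 5, and none of them lay at the floor on all arrays. Of the 10 measured tapetum and anther markers, array 4 was the lowest mutant array for 6 and the highest for 2, SWEET8 and ROXY2. As a sign of RNA integrity, the actin signal at the 3' end over that at the 5' end was 20.3, 29.6 and 17.1 in mutant arrays 1, 4 and 5-2 by one set of control probes and 16.2, 23.3 and 32.8 by the other, with 13.3 to 34.4 in wild type over both sets. The same ratio for GAPDH was 29.5, 56.2 and 29.7 by one set and 4.08, 3.64 and 2.39 by the other in mutant arrays 1, 4 and 5-2, and in wild type it ran from 25.9 to 53.1 by the first set and from 3.91 to 4.57 by the second. Array 4 was thus the highest mutant array by 2 of these 4 measures. The part of pollen content, RNA quality or scaling in the lower values of array 4 was not tested.

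Spread within a genotype was alike on the whole. Among the 43, the highest mutant array was 1.69 times the lowest in the median, and the highest wild-type array 1.66 times the lowest. The mutant arrays were within 1.5-fold of each other on 14 of the 43 and more than 3-fold apart on 4, AT1G04645 with 4.53-fold being the widest. In wild type, array 6 was the highest on 19, array 5 on 15 and array 2 on 9 of the 43. The median intensity over all probe sets had the same order, 73.5, 72.8 and 69.5 on arrays 6, 5 and 2. How often each was the highest on other probe sets was not counted.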

How the data were processed

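Biotin-labelled anther RNA was hybridised to 3 mutant and 3 wild-type arrays, grouped by the labels. From their range, the values that the authors deposited are linear intensities, with 1 value for each probe set on each array. The mean of each array after trimming 2% at each end was 150.01, as scaling to a common level gives; how the scanner images were summarised was not given in the sources used here. Pearson's r across probe sets between arrays was 0.879 to 0.948, and at most 1 value was identical in any pair.

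The intensities were used on the deposited scale, on which the members were defined; 64 Affymetrix control probe sets were left out. Values under 16 were raised to 16 and log2 transformed. The fit used limma 3.58.1 in R 4.3.3 over 15164 probe sets (dimmest 1 in 3 by mean left out, two-sided, adjusted by Benjamini-Hochberg, without covariates) and was tested on simulated data. The number of arrays limits the precision.

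Genes were named from the platform's annotation, updated through RefSeq's TAIR10.1 annotation. No build is named by the files, so no coordinates are given, and no sequences were used here. Values per array are printed for named members by a rule on the size of the gap, level, function and shared family, plus 2 unnamed probe sets; further genes (AT3G57950 and AT3G24780 for their spread, relatives) were chosen with values in view. The members, marker lists and tests were chosen with earlier results of these data known. The marker lists not described in the text were handling and heat stress (1 of 8 measured, STZ, log2 difference 0.41) and jasmonate (2 of 12 measured, THI2.1 and PDF1.2, 4.03 and -0.65). Alternatives were other scalings, floors, filters, thresholds and variance models, and leaving out each array.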

Additional observations from a re-analysis of the deposited data

Results flagged for a closer look

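One of 64 control probe sets, none of which entered the comparisons, met the same rule as the raised transcripts. AFFX-r2-At-U12639_at had intensities of 3649.7, 3324 and 6869.7 in mutant arrays 1, 4 and 5-2, against 12.8, 23.6 and 29.98 in wild-type arrays 2, 5 and 6. Its target is not named in the tables used here.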

How the results depend on the processing

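No paired analysis was possible because the genotypes share at most 1 replicate number, 5, if the name 5-2 stands for it. The rule took 117 probe sets with 1.5-fold and 17 with 3-fold in place of 2-fold, 53 to 95 with an array left out, and 33 to 52 under the other scalings and intensity limits; leaving out an array keeps all 43 by construction, and 40 of 43 were kept at a common median and 39 after quantile normalization. The median log2 difference of the 43 stayed between 2.14 and 2.40 under all alternatives. Of the 43, limma called 1 with no filter, 3 to 38 with an array left out, and 37 to 43 otherwise. Over all probe sets, higher calls numbered 1 with no filter, 144 with a mean-variance trend, 98 with array weights, 165 with a floor of 50 and 5 to 103 with an array left out. Lower calls numbered 2 with no filter, 243 at a common median, 133 after quantile normalization, 343 with the trend, 254 with array weights, 379 with a floor of 50 and 6 to 419 with an array left out. The causes were not tested. The sign of the members' differences is fixed by the rule when an array is left out, so it is no sign of stability. Of 180 values of named members, 1, AT4G36430 with a floor of 50 (1.53), moved by more than the spread between arrays. Leaving out an array cannot move a value by more than this spread, so for those settings the count is no sign of stability. The log2 difference of AT1G12010 ran from 2.88 to 5.11 with single wild-type arrays left out.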

Other observations

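The genes next to the named members on the chromosome were looked up as well. Of the adjacent protein-coding genes in the RefSeq annotation, 20 with a probe set of their own were no members, beside 14 of the 18 named members. Of these 20, 13 were higher and 6 lower in the mutant and 1 lay at the floor on all arrays, and the log2 differences ran from -0.63 to 1.11 around a median of 0.11. The 1 above 1 was AT2G31940, next to AT2G31945. For comparison, the median log2 difference was 0.03 over all probe sets and 0.11 over those with every mutant array at 100 or more. By their locus codes the named members lay on all 5 chromosomes, with 3, 4, 6, 3 and 2 on chromosomes 1 to 5. These chromosomes held 25.8%, 16.4%, 20.6%, 14.6% and 22.6% of the measured genes.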
